A study of Mus musculus with 40 samples.

Results

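Hippocampal transcripts of SJL mice were set against those of B6 mice, both inbred and non-transgenic, to find which differ between strains that carry no amyloid transgene. The 8 arrays were taken from a series of 40 by strain percentages in the labels, 100 for SJL or 100 for B6, and columns of the deposited non-normalized table were matched to samples by the running number in the titles. The 4 SJL mice were arrays 33, 34, 39 and 40, here SJL replicates 1 to 4, and the 4 B6 mice were arrays 29, 30, 35 and 36, here B6 replicates 1 to 4. All 8 were 12 months old, and each mouse gave total RNA to its own Illumina mouse Ref-8 array. Inbred DBA mice of the same age (the label's strain is dba2), on 4 arrays, entered the fit only to share the estimate of spread. A separate set of mice carried an APP transgene (Tg) for amyloid precursor protein and had mixed ancestry: 6 SJL-richest mice (84% SJL and 16% B6) and 6 B6-rich mice (37.5% SJL and 62.5% B6), also aged 12 months. The labels give neither sex nor the promoter of the transgene.

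The hippocampus holds the pyramidal neurons of fields CA1 to CA3, the granule neurons of the dentate gyrus, interneurons and glia. Inbred strains are fixed at each locus, so that a transcript under a heritable difference has 1 level in each strain, and such loci also travel with their neighbours on a chromosome. SJL is an inbred strain used for studies of autoimmune encephalomyelitis. B6 is the strain of the mouse reference genome, from which array probes are commonly designed. The strains carry different haplotypes of the histocompatibility complex, the chromosome 17 region that encodes class I and class II antigen-presenting proteins and several complement components.

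A difference in the naming of the arrays bears on every value. A second deposited table names its columns by accession, and for the inbred mice its order does not match the running numbers: 8 of the 12 inbred columns hold another array number, and 4 of the 8 SJL and B6 columns change strain. None of the 28 Tg columns is affected. With the accession names, limma called 0 probes between SJL and B6, with 1067 at an unadjusted p under 0.05, against 3430 under the running numbers used here. With the running numbers, the first principal component of the 8 arrays held 57.0% of the variance and placed SJL arrays at -27.6 to -21.6 and B6 arrays at 21.4 to 26.7.

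Each of the 8 arrays detected 43.2% to 48.8% of its 25697 probes (detection p at most 0.01). The SJL arrays had 43.2% to 43.9% and B6 replicates 3 and 4 had 43.7% and 44.1%, while B6 replicates 1 and 2, which belong to running numbers 29 to 32, had 48.8% and 48.4%. The 4 mice of a strain are the only replicates, and their number limits the precision. Values below are normalized signals on the log2 scale, and a log2 change is SJL minus B6. An offset of 16 added before the log2 makes changes of dim probes smaller than the change in RNA. In whole tissue, fewer cells of a type and less RNA per cell cannot be told apart.

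With limma and Benjamini-Hochberg adjustment over all 13589 probes detected on at least 4 of the 40 arrays, 1841 probes (13.5%) differed at an adjusted p under 0.05. In SJL mice 889 of them (6.54% of those tested) were higher and 952 (7.01%) lower. At the stricter thresholds of the series' design text, an adjusted p of at most 0.001 and 1.5-fold, 561 probes (4.13%) were called. The called probes at 0.05 belong to 1513 named genes. The typical called difference was small, with a median absolute log2 change of 0.53. At least a 2-fold difference was reached by 109 probes higher and 261 lower in SJL, and a 4-fold one by 19 higher and 103 lower. Among the 1328 called probes detected on all 8 arrays the split was 694 higher and 634 lower, with 4-fold differences at 4 higher and 28 lower. The excess of lower calls at large folds thus stood also where every array gave a measured level. The arrays of the strains did not overlap at 1732 of the called probes, against 2632 (19.4%) of all tested probes.

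The largest deficit in SJL that was measured on every array was that of Zfp365, a zinc finger gene active in neurons. Zfp365 stood at 6.24, 6.24, 6.41 and 6.20 in SJL mice, against 11.82, 11.79, 11.71 and 11.57 in B6 mice, 43.8-fold lower in SJL (log2 change -5.45 ± 0.10, SE, adjusted p = 5.52e-13, limma). No SJL array came within 5 log2 units of a B6 array. DBA mice, at 6.29 to 6.70, lay with SJL.

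Next came Atp6v1d, which encodes a subunit of the proton pump that acidifies lysosomes and synaptic vesicles. Atp6v1d had 9.05, 8.76, 8.66 and 9.11 in SJL mice and 12.55, 12.51, 12.51 and 12.45 in B6 mice, 12.2-fold lower in SJL (adjusted p = 2.89e-11, limma). Noct, the circadian phosphatase nocturnin, had 6.57, 6.35, 6.53 and 6.60 in SJL mice and 10.03, 10.06, 9.90 and 9.92 in B6 mice, 11.1-fold lower (adjusted p = 2.04e-12, limma). Neither gene's groups overlapped, and in both DBA mice lay with B6. A second Noct probe, ILMN_2591440, had a log2 change of -0.61 and did not pass (adjusted p = 0.0529, limma).

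The other leading deficits measured on all 8 arrays came from several functions. Mtrex, an RNA helicase of the nuclear exosome, was 9.64-fold lower in SJL, Rusc2, a vesicle transport adaptor, 8.19-fold, and Zbtb18, a transcriptional repressor of neuronal development, 6.10-fold. Cbfa2t3, a transcriptional corepressor, was 6.06-fold lower, Gm5801 5.61-fold, the small GTPase gene Arl16 5.51-fold and the splicing regulator Clasrp 5.12-fold. Insig2, which holds the sterol sensor SCAP in the endoplasmic reticulum, was 5.26-fold lower. Other probes of Zbtb18 and Insig2 did not pass, as given below. Ccl21a, a lymphoid chemokine of a gene family with near-identical copies, was 5.50-fold lower. Its SJL mice stood at 7.73, 6.13, 5.78 and 6.06, against 8.94, 8.98, 8.84 and 8.79 in B6 mice. SJL replicate 1 was thus well above the other 3 SJL mice, yet below every B6 mouse.

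In the other direction, Slc7a14, a member of the cationic amino acid transporter family, led the measured excesses. Slc7a14 had 10.84, 10.63, 10.50 and 10.57 in SJL mice and 7.70, 7.89, 7.75 and 7.54 in B6 mice, 7.55-fold higher in SJL (log2 change 2.92 ± 0.09, SE, adjusted p = 8.02e-11, limma). Abhd1, a hydrolase fold gene, had 7.83, 8.20, 8.04 and 8.06 in SJL mice and 5.54, 5.86, 6.05 and 6.01 in B6 mice, 4.49-fold higher. Both sets of SJL arrays were clear of the B6 arrays, and DBA mice lay with SJL for Slc7a14 and near B6 for Abhd1.

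The next excesses were smaller. The splicing factor Slu7 was 3.75-fold higher in SJL, the diacylglycerol kinase Dgke 3.71-fold, and Ndufb10, a subunit of respiratory complex I, 3.51-fold. Lcmt1, the methyltransferase of protein phosphatase 2A, was 3.20-fold higher, the ribosome biogenesis gene Grwd1 3.19-fold, Habp4 3.14-fold, Gm8909, a class I-like histocompatibility gene, 3.45-fold, Tmem87a 3.10-fold and Map1b, which binds microtubules, 3.09-fold. Each fold is that of a single probe. Another Grwd1 probe was called lower, and other probes of Habp4, Lcmt1 and Map1b did not pass, as given below. Sfrp1, a secreted inhibitor of Wnt signals, was more uneven: it stood at 7.77, 8.69, 8.29 and 7.26 in SJL mice and 6.43, 5.84, 6.02 and 6.22 in B6 mice (log2 change 1.88 ± 0.40, SE, adjusted p = 0.00717, limma). The groups did not overlap, but Sfrp1 did not pass when only running numbers 33 to 40 were used.

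**Figure D1:**
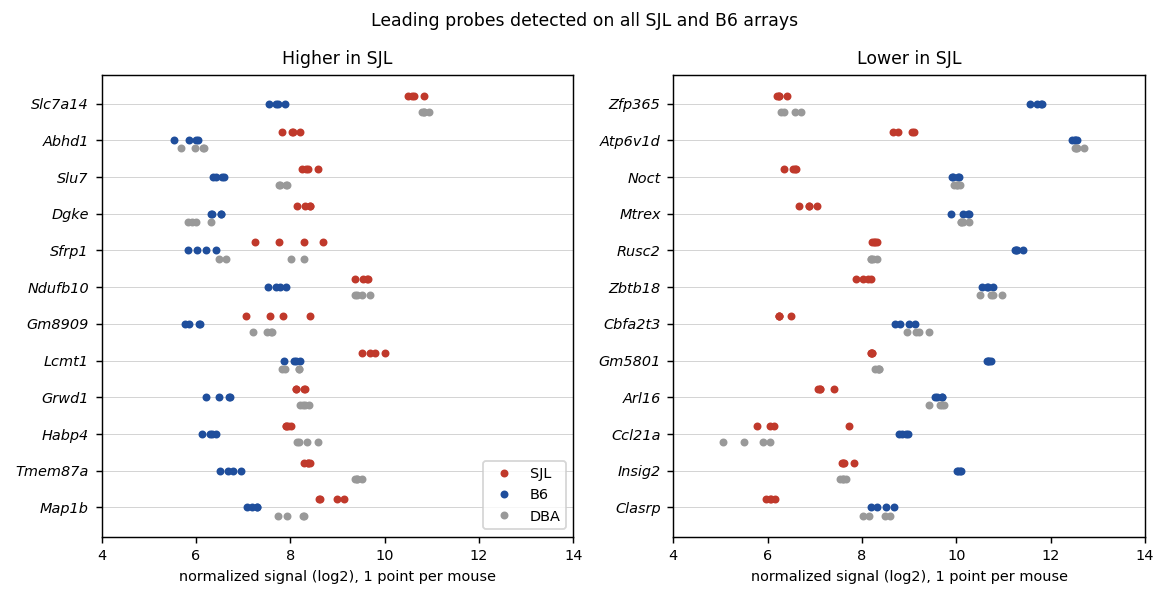
Normalized signal (log2) of the 12 probes most raised and the 12 most lowered in SJL among those detected on all 8 SJL and B6 arrays, with 1 point per mouse for SJL, B6 and DBA. Within a strain the points lie close together, as for Zfp365 at 6.20 to 6.41 in SJL and 11.57 to 11.82 in B6, while DBA lies with SJL at some genes and with B6 at others.

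Some probes were detected in 1 strain alone, so that only a bound can be given: the mean of the brighter strain is set against each dim array's detection limit, its lowest signal among detected probes, or against the probe's own signal where that is higher. Detection on all 4 SJL and no B6 arrays was found for 25 probes, and on all 4 B6 and no SJL arrays for 164. B6 replicates 1 and 2 had the higher detection rates given above; among running numbers 33 to 40 alone, 79 probes were detected on all 4 SJL and neither of the 2 B6 arrays, and 173 on both B6 and no SJL array. Of the 164 probes seen in B6 only, 54 were detected on all 4 DBA arrays and 58 on none.

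Spink8, a protease inhibitor gene used as a marker of CA1 neurons, was undetected on all 4 SJL arrays, at 4.62, 4.68, 4.47 and 4.50, against 10.87, 10.66, 10.77 and 10.82 in B6 mice, at least 31.8-fold lower in SJL (adjusted p = 4.64e-12, limma). Cops8, a subunit of the COP9 signalosome that removes NEDD8 from cullin ligases, had 4.93, 4.76, 4.79 and 4.92 in SJL mice and 10.64, 10.61, 10.59 and 10.56 in B6 mice, at least 28.1-fold lower. Both genes were near the floor of the array in SJL and bright in B6 and in DBA mice. Tmem68 was at least 28.4-fold lower in SJL, Abhd16a at least 24.7-fold, Zfp330 at least 22.7-fold, and Arl3, a GTPase of cilia, at least 20.7-fold. Chchd4, which drives oxidative import into mitochondria, was at least 16.8-fold lower and Lrrc57 at least 13.1-fold. A second Arl3 probe detected on all 8 arrays also passed, with a much smaller log2 change of -0.35.

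Detected in SJL alone, 4930555G01Rik had 9.34, 9.40, 9.45 and 9.61 in SJL mice and 4.72, 4.54, 4.63 and 4.47 in B6 mice, at least 14.8-fold higher in SJL (adjusted p = 1.90e-13, limma). Trappc12, part of a vesicle tethering complex, was at least 4.72-fold higher, Bricd5 at least 4.29-fold, and Ttl, which restores tyrosine to tubulin, at least 4.08-fold. Masp2, the protease that starts the lectin pathway of complement, had 7.27, 7.43, 7.53 and 7.57 in SJL mice and 4.77, 4.92, 4.96 and 4.67 in B6 mice, at least 3.70-fold higher. Another Abhd1 probe was undetected in B6 and at least 6.09-fold higher in SJL. The sets of arrays were well apart in each case.

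Genes listed under class I histocompatibility and peptide loading differed in both directions. Of 22 tested members, each by its brightest probe, 4 were higher and 1 lower in SJL, against 13.9% called over all 9385 tested genes (6.55% higher and 7.36% lower), and the median log2 change was 0.29 against 0.02 over all tested genes. H2-D1, a classical class I heavy chain, stood at 9.25, 8.59, 8.24 and 7.55 in SJL mice and at 4.63, 4.82, 4.83 and 5.00 in B6 mice, undetected on every B6 array and at least 7.18-fold higher in SJL (adjusted p = 5.91e-07, limma). The nonclassical H2-T10 had 7.51, 7.57, 7.21 and 6.96 in SJL mice and 5.10, 4.77, 4.60 and 4.49 in B6 mice, where no array detected it, at least 3.36-fold higher. The groups were separate for both, and H2-D1 varied much more among SJL mice than among B6 mice.

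The class I genes have near-identical relatives, so a probe may be read by several alleles or copies, and these levels are uncertain as levels of 1 gene. Psmb9, a subunit of the immunoproteasome, was undetected in SJL, at 4.91, 5.08, 4.86 and 5.02, against 6.07, 6.67, 5.84 and 6.36 in B6 mice, at least 1.36-fold lower. H2-Ke6, also counted in the list, is named for its place in the histocompatibility complex and is not a class I or peptide supply gene. H2-Ke6 rose by a log2 change of 0.39 and the immunoproteasome gene Psmb10 by 0.27 (adjusted p = 0.0313, limma). B2m, the light chain of class I proteins, had 12.00, 11.88, 11.42 and 10.91 in SJL mice and 11.67, 12.11, 11.63 and 12.01 in B6 mice, which overlap (adjusted p = 0.385, limma). Without SJL replicate 4, 7 members of this list passed as higher.

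None of 8 class II members passed by its brightest probe, although 1 did without SJL replicate 3 and 1 without B6 replicate 4. H2-Ab1 had 7.82, 7.76, 6.15 and 5.31 in SJL mice and 6.23, 8.27, 5.72 and 7.78 in B6 mice, and Cd74, the invariant chain of class II, 8.57, 8.27, 6.63 and 5.65 in SJL mice and 6.50, 8.61, 5.65 and 8.18 in B6 mice. Both ranged widely within each strain and overlapped. A dimmer H2-Ab1 probe, ILMN_1226525, was undetected on all SJL and DBA arrays and seen on 3 of the 4 B6 arrays, which makes it at least 2.66-fold lower in SJL (adjusted p = 0.00304, limma). H2-Ea was undetected on all 8 arrays. In the class III region, 3 of 35 tested genes were higher and 3 lower in SJL, 17.1% called against 13.9% over all genes. Their median log2 change was 0.09. Besides Abhd16a, the sialidase Neu1 had 9.35, 9.34, 9.36 and 9.44 in SJL mice and 10.67, 10.90, 10.73 and 10.71 in B6 mice, 2.60-fold lower, with no overlap. The RNA helicase Ddx39b was 1.94-fold higher in SJL by its brightest probe, while its other 2 probes did not pass (log2 changes of 0.22 and 0.21).

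Complement and Fc receptor genes, which in brain are read out mostly in microglia, had 2 higher and 3 lower in SJL among 13 tested. That is 38.5% called against 13.9% over all genes, and the median was -0.01. Fcer1g, the signalling chain shared by activating Fc receptors, was at the floor in SJL, at 4.36, 4.47, 4.36 and 4.43, against 9.33, 9.41, 9.37 and 9.60 in B6 mice, at least 12.5-fold lower (adjusted p = 6.66e-14, limma). Every SJL array lacked detection of it and every B6 array was bright. Its near neighbour Fcgr3, a low-affinity IgG receptor, went the other way, with 8.77, 8.42, 8.22 and 8.90 in SJL mice and 7.31, 7.40, 7.68 and 7.79 in B6 mice, 2.05-fold higher. The complement starters C1qb and C1qc were 2.20-fold and 1.71-fold lower in SJL and C4b, the mouse C4 gene, higher by a log2 change of 0.56.

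C1qb had 9.63, 9.22, 8.76 and 9.68 in SJL mice and 10.23, 10.52, 10.30 and 10.79 in B6 mice, without overlap. C2, which encodes the protease partner of C4, had 8.78, 7.59, 7.51 and 8.14 in SJL mice and 5.75, 6.80, 5.46 and 7.19 in B6 mice, at least 3.08-fold higher with detection on 3 of 4 B6 arrays. Its call (adjusted p = 0.0212, limma) was lost without SJL replicate 1, SJL replicate 4, B6 replicate 1 or B6 replicate 3, with running numbers as a block and with trend and robust variances. The complement and Fc receptor list kept 2 higher and 3 lower in each of those leave-out fits, so C2 is not among its counted genes.

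Of 14 homeostatic markers, 2 were lower in SJL, the membrane lectin Siglech and Olfml3, with a median of -0.01. That is 14.3% called, near the 13.9% over all genes. Olfml3 had 8.21, 8.05, 8.03 and 7.97 in SJL mice and 8.76, 9.18, 8.66 and 8.79 in B6 mice. The 2 Siglech probes differed in size: the brighter gave a log2 change of -0.74, and ILMN_2928599, undetected in SJL, was at least 4.03-fold lower. The summed level of the 14 markers was 14.56 to 14.85 in SJL mice and 14.82 to 15.01 in B6 mice, and 13 of them were detected on all 8 arrays.

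Of 23 genes known to be raised in plaque-associated microglia, 2 were higher and 3 lower, with a median of -0.16. That is 21.7% called against 13.9% over all genes. Gpnmb, a glycoprotein of lysosome-loaded phagocytes, had 6.27, 6.70, 6.42 and 6.41 in SJL mice and 8.22, 8.39, 8.04 and 8.40 in B6 mice, 3.51-fold lower. Trem2, the lipid-sensing receptor, was 1.90-fold lower, with 7.00, 7.25, 7.16 and 7.00 in SJL mice and 8.03, 7.98, 8.15 and 7.93 in B6 mice. Lpl, lipoprotein lipase, which neurons also express, was 2.67-fold higher in SJL. In none of these 3 did the strains overlap. Among 19 interferon-stimulated genes, Ifi35 and Irf3 were lower (10.5% called), and without SJL replicate 4, 4 others passed as higher.

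Of 21 tested myelin and oligodendrocyte genes, 7 fell in SJL and 0 rose, against 7.36% lower and 6.55% higher over all genes: 19 of 21 had a negative log2 change, and the median was -0.38. Pllp had 8.03, 8.50, 8.31 and 7.88 in SJL mice and 8.90, 9.34, 9.18 and 8.68 in B6 mice. The galactosyltransferase Ugt8a had 8.47, 9.14, 9.38 and 8.48 in SJL mice and 9.64, 9.86, 9.96 and 9.32 in B6 mice. The transferrin gene Trf had 11.02, 11.72, 11.79 and 11.66 in SJL mice and 12.11, 12.16, 12.15 and 12.24 in B6 mice. The groups overlapped at Ugt8a and were apart at Pllp and Trf, and SJL replicate 1 was the lowest or near the lowest of the SJL mice.

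The count for this list depended on single arrays. It was 2 without SJL replicate 1, B6 replicate 3 or with running numbers as a block, 3 without B6 replicate 2 and 1 among running numbers 33 to 40, while the median lay between -0.48 and -0.25 in these and in every other fit that left out 1 array. The summed level of the 21 genes was 15.88 to 16.20 in SJL mice and 16.31 to 16.52 in B6 mice. The main myelin proteins Mbp, Mag and Mog had log2 changes of -0.28, -0.41 and -0.38, none of which passed.

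Markers of tissue next to the hippocampus varied among mice of both strains. The summed level of 12 choroid plexus markers was 13.92 to 15.93 in SJL mice and 12.86 to 15.83 in B6 mice, with 6 of the 12 detected on all 8 arrays. Ttr, transthyretin, stood at 12.93, 15.31, 15.25 and 13.49 in SJL mice and at 15.19, 14.83, 12.14 and 15.31 in B6 mice. None of the 12 passed, against 13.9% called over all genes. Their median was -0.40, but it ran from -1.16 without B6 replicate 3 to 0.08 without SJL replicate 1, so it has no settled sign. Sfrp1 was highest in SJL replicates 2 and 3, the SJL mice with most Ttr. In B6 replicates 1, 2 and 4 Ttr was at least 14.83, and Sfrp1 in every B6 mouse lay below every SJL mouse. The part of choroid plexus in any result was not tested. Vessel and blood markers summed to 13.06 to 14.10 in SJL mice and 12.71 to 13.67 in B6 mice. Of these 16 genes, the pericyte gene Rgs5 alone passed (2 genes without SJL replicate 1 or B6 replicate 4), with 9.39, 9.44, 9.51 and 9.32 in SJL mice and 8.12, 7.99, 7.86 and 8.24 in B6 mice, 2.57-fold higher.

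The labelled tissue carried its defining markers: 15 of 17 tested genes of hippocampal subfield neurons were detected on all 8 arrays, and their summed level was 14.51 to 14.71 in SJL mice and 14.70 to 14.79 in B6 mice. C1ql2, a secreted synaptic organiser of dentate granule cells, was 2.01-fold lower in SJL, with 11.54, 11.32, 11.51 and 11.47 in SJL mice and 12.42, 12.56, 12.51 and 12.36 in B6 mice. Prox1, the transcription factor that marks granule neurons, had 8.93, 8.96, 8.64 and 8.92 in SJL mice and 9.06, 9.18, 9.23 and 9.13 in B6 mice, a log2 change of -0.29. Iyd, undetected in SJL and detected on 2 of 4 B6 arrays, was the third gene called. The other 14 did not pass, and the list median was 0.02. The share called was 17.6%, against 13.9% over all genes. The Prox1 call on this probe was lost without SJL replicate 3, B6 replicate 2, B6 replicate 3 or B6 replicate 4. A dimmer Prox1 probe, ILMN_2894355, was also lower, by -0.26 (adjusted p = 0.0227, limma), without overlap.

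Of 15 interneuron and neuropeptide genes, 4 were lower in SJL and 0 higher, 26.7% called against 13.9% over all genes, with a median of -0.08. Cort, the neuropeptide cortistatin, had 7.52, 7.49, 7.70 and 7.13 in SJL mice and 9.22, 8.94, 9.21 and 9.02 in B6 mice, 3.12-fold lower, and its second probe gave 3.08-fold. The serotonin receptor Htr3a was lower by a log2 change of -0.76, Tac1, which encodes substance P, by -0.68, and neuropeptide Y by -0.51 (Npy, adjusted p = 0.00137, limma). The Npy values were 10.62, 10.65, 10.76 and 10.39 in SJL mice and 11.19, 11.02, 11.22 and 11.02 in B6 mice, without overlap. The Tac1 call was lost in 5 of the 8 fits that left out 1 array.

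Of 18 genes for glutamate receptors, transporters and their scaffold, 1 passed (5.56% called, against 13.9% over all genes). Slc17a7, the vesicular glutamate transporter VGLUT1 of pyramidal and granule neurons, stood at 13.14, 12.95, 12.90 and 12.76 in SJL mice and at 11.45, 11.23, 11.46 and 11.32 in B6 mice, 2.97-fold higher in SJL (log2 change 1.57 ± 0.09, SE, adjusted p = 7.69e-08, limma). The groups were far apart, and DBA mice, at 10.80 to 11.08, lay below both. None of 7 GABA receptor genes passed.

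Potassium channel genes gave 5 higher and 3 lower among 39 tested, 20.5% called against 13.9% over all genes. The 8 calls became 4 without SJL replicate 1 and 5 without SJL replicate 2, B6 replicate 1, 2 or 4. Kcnj9, the GIRK3 channel, had 6.94, 7.18, 7.49 and 7.56 in SJL mice and 6.15, 5.88, 6.07 and 5.94 in B6 mice, 2.44-fold higher. Its partner Kcnj6, GIRK2, was undetected in SJL and at least 1.12-fold lower, and Kcnh1 was 1.66-fold lower, with 9.14, 9.28, 9.21 and 9.17 in SJL mice and 10.08, 9.80, 9.91 and 9.95 in B6 mice. The strains were separate for both measured channels.

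Among 29 genes of amyloid precursor processing and clearance, 1 was higher and 4 lower in SJL. That is 17.2% called, near the 13.9% over all genes, and the median was 0.09. Aph1b, a subunit of the gamma-secretase that releases amyloid-beta, was undetected in SJL, at 4.50, 4.66, 4.61 and 4.61, against 8.37, 8.34, 8.02 and 7.99 in B6 mice, at least 5.26-fold lower (adjusted p = 2.74e-10, limma). Ide, the insulin-degrading enzyme, which also cleaves amyloid-beta, had 8.62, 8.71, 8.87 and 8.65 in SJL mice and 9.39, 9.36, 9.71 and 9.73 in B6 mice, 1.79-fold lower. Both genes separated the strains on every array. Sorl1, a sorting receptor for the precursor, was higher by a log2 change of 0.40. Ece1, another peptidase, was lower by -0.31 on its brightest probe and higher by 0.57 on its dimmer one, so its direction depends on the probe. App itself had a log2 change of 0.09 and Bace1 one of -0.06, and neither passed.

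Of 28 kinesin and axonal transport genes by their brightest probe, Map2 and Kif3a were lower in SJL and none higher. That is 7.14% called against 13.9% over all genes. Over all 59 probes of these genes, 5 were higher, 3 of them of Map1b, and 4 lower. Kif3a, a kinesin-2 motor, had 10.80, 10.69, 10.80 and 10.89 in SJL mice and 11.24, 11.21, 11.31 and 11.17 in B6 mice on its brightest probe, and its dimmer probe was 4.24-fold lower. The 2 other Map2 probes did not pass, at 0.07 and 0.17. None of the 5 Klc1 probes differed at the threshold: their log2 changes were 0.05, 0.08, 0.12, 0.15 and -0.24. Klc1 probe ILMN_3042059, the last of these, had an adjusted p of 0.0662 by limma and passed without B6 replicate 1, without SJL replicate 2 and with trend and robust variances.

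Proteasome and COP9 signalosome genes gave 5 lower and 0 higher among 41, Cops8 included. That is 12.2% called, near the 13.9% over all genes, and the median was 0.03. Psmd12, a subunit of the proteasome lid, had 8.99, 8.86, 8.84 and 9.30 in SJL mice and 10.44, 10.53, 10.47 and 10.54 in B6 mice, 2.82-fold lower. Psmb5, the chymotrypsin-like catalytic subunit, had 8.69, 8.51, 8.52 and 8.53 in SJL mice and 10.11, 9.89, 10.06 and 10.10 in B6 mice, 2.79-fold lower. The sets of arrays were more than 1 log2 unit apart in both, while most other subunits lay near 0.

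Of 62 respiratory chain genes, 4 were higher and 3 lower (11.3% called, against 13.9% over all genes), with a median of 0.00066. In all, 4 passed without SJL replicate 3, B6 replicate 1, 2 or 4. The complex II subunit Sdhc was 1.62-fold higher beside Ndufb10, and Atp5g2 and Ndufa7 were 1.54-fold and 1.44-fold lower. The heat shock list had 1 higher and 3 lower of 27 (14.8% called). Its small chaperone Hspb8 had 6.47, 6.69, 6.19 and 5.94 in SJL mice and 7.82, 7.83, 7.41 and 7.90 in B6 mice, 2.67-fold lower. The chaperone Hspa8 rose by a log2 change of 0.54 on its brightest probe, and by 0.02 on another, which did not pass. The glutathione transferases gave 2 higher and 2 lower of 21 (19.0% called), among them Gsta4, which detoxifies lipid aldehydes, 1.48-fold higher.

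The immediate early genes, which report recent neuronal activity, gave 1 higher and 1 lower of 18, Nptx2 and Egr4, with 1 to 4 called when an array was left out. Astrocyte genes gave 1 higher and 1 lower of 14 (14.3% called), and reactive astrocyte genes 1 higher of 16 (6.25%). Over all genes 13.9% were called. In these 2 lists 1 and 0 were called without SJL replicate 1, SJL replicate 2, B6 replicate 1 or B6 replicate 4. Of 12 markers of neighbouring regions, the striatal gene Rgs9 was lower and the dopamine receptor Drd1 higher, and 4 passed without B6 replicate 4. None of 6 tested sex-linked genes passed.

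Genes already known to vary between inbred strains gave 5 higher and 2 lower among 18 tested, including H2-D1, Lpl, Kcnj9, Gsta4 and Ide given above. The share called was 38.9%, against 13.9% over all genes. Alad, a heme synthesis enzyme whose gene copy number differs between strains, had 11.76, 12.02, 11.95 and 11.83 in SJL mice and 10.55, 10.50, 10.43 and 10.49 in B6 mice, 2.63-fold higher. Entpd4, a nucleotidase with strain-dependent copies, had 11.39, 11.56, 11.56 and 11.48 in SJL mice and 12.14, 12.19, 12.11 and 12.16 in B6 mice, a log2 change of -0.65. Neither overlapped. The list was put together from such knowledge and so is no independent evidence of strain differences.

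**Figure D2:**
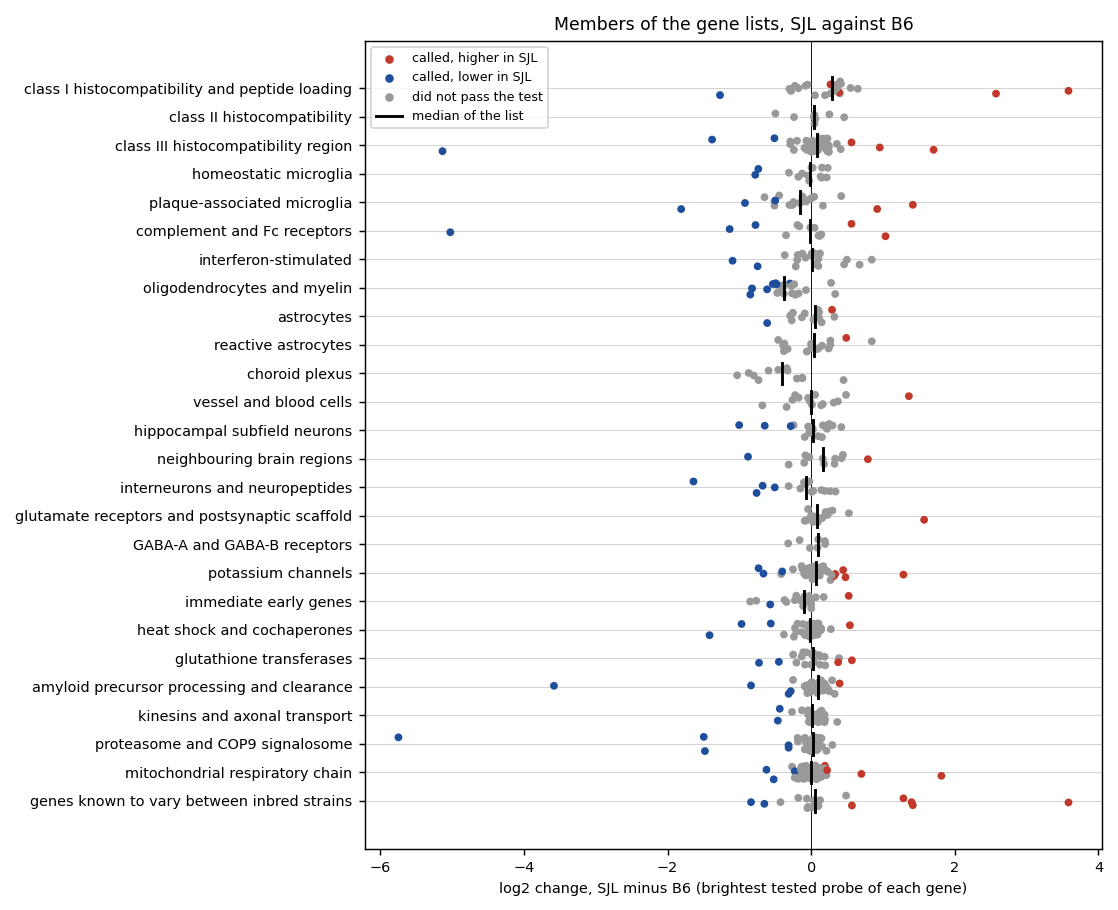
Log2 change (SJL minus B6) of every tested member of 26 gene lists by its brightest probe, coloured by whether it was called higher or lower in SJL, with a bar at each list's median. Most members lie near 0 with a few far away. In the oligodendrocyte list 19 of 21 members lie below 0 (median -0.38) and in the choroid plexus list 11 of 12 (median -0.40); no test of either list was run.

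Probes of 1 gene often disagreed. Of 2461 genes with at least 2 tested probes (12.9% of their probes called), 532 had at least 1 called. All probes passed in 1 direction in 118 of these genes (22.2%), only some passed in 390 (73.3%), and calls ran in opposite directions in 24 (4.51%). Whether strain differences in the sequence under a probe contribute was not tested, since probe sequences were not used here.

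In some genes every probe was called with 1 sign, though not always at 1 size. The 2 Rusc2 probes had log2 changes of -3.03 and -2.90, the 2 Cort probes -1.64 and -1.62, and the 3 Slc7a14 probes 2.92, 2.91 and 0.80. Fv1, a retrovirus restriction gene known to differ between strains, was undetected on all B6 arrays by each of its 3 probes and at least 2.18-fold, 1.81-fold and 1.37-fold higher in SJL. Ctsc, a lysosomal protease, was undetected on all SJL arrays by both probes and at least 5.32-fold and 1.93-fold lower. Of the 2 Rpl29 probes, 1 was undetected in SJL and at least 10.3-fold lower, and the other, measured on every array, had a log2 change of -1.76.

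Other leading genes rested on 1 probe of several. Zbtb18 was lower in SJL by -2.61 on 1 probe, while 4 others, at -0.01 to 0.29, did not pass. Insig2 was lower by -2.39 on 1 probe and had 0.08 on its other, and Zfp330 had -0.25 (adjusted p = 0.129, limma) on a second probe detected on all 8 arrays. Habp4 was higher on 1 probe and had -0.10 on its other (adjusted p = 0.677, limma), and the second Ttl probe, detected on 3 arrays of each strain, had 0.13. Slu7 passed on both probes, by 1.91 and 0.41. Lcmt1 was higher on 1 probe, with 0.09 and -0.10 on the other 2. Map1b was higher on 3 probes, by 1.63, 1.38 and 0.90, but its brightest probe had -0.03.

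Opposite calls were found in Grwd1, at 1.67 and -0.41, in the DNA repair gene Apex1, at 0.48 and -1.76, and in Actb, the beta-actin gene, where 2 of 5 probes were higher and 2 lower. The Apex1 probes read 8.15, 8.14, 7.98 and 8.16 in SJL mice and 9.84, 9.88, 10.01 and 9.77 in B6 mice on 1, and 7.38, 7.40, 7.33 and 7.58 in SJL mice and 6.96, 7.20, 6.83 and 6.77 in B6 mice on the other. The strains were separate on both. A direction for these 3 genes cannot be given from these probes.

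**Figure D3:**
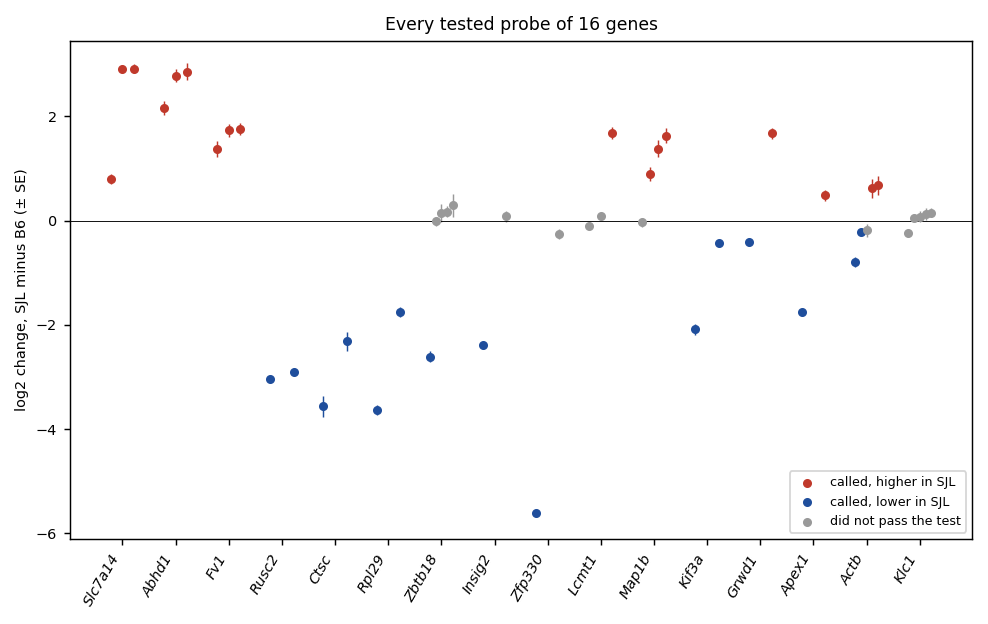
Log2 change (SJL minus B6, ± SE) of every tested probe of 16 genes, coloured by call. All probes of Slc7a14, Abhd1, Fv1, Rusc2, Ctsc and Rpl29 lie on 1 side of 0, whereas Zbtb18 has 1 probe at -2.61 and 4 between -0.01 and 0.29, and Grwd1, Apex1 and Actb have calls on both sides.

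Called genes lay unevenly along the genome. Of 9381 tested genes that could be placed, 1512 (16.1%) had a called probe. The share was 23.8% on chromosome 14, 23.7% on chromosome 17, 22.5% on chromosome 13 and 20.9% on chromosome 4. It was 9.18% on chromosome 15, 6.55% on chromosome 10 and 6.00% on X. A neighbouring tested gene was also called for 652 of the called genes (43.1%), against 25.6% of the genes not called. Genes of a family with similar sequence also lie side by side, so that 1 transcript may be read by several probes.

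Runs of at least 4 called neighbours numbered 36. The run of 5 on chromosome 1 held Fcgr3, Sdhc, Apoa2, Fcer1g and Adamts4, with log2 changes of 1.03, 0.70, -1.07, -5.03 and -2.21. Another on chromosome 17 held Abcf1, Prr3, H2-T23, H2-T10 and Gm8909, with 0.23, -1.01, -1.76, 2.57 and 1.79. Each gene of a run is given by its called probe with the largest change. On chromosome 3, Cetn4, Bbs12, Nudt6, Gm5148 and Mfsd8 were all lower, at -0.38, -0.59, -2.90, -2.73 and -1.06. Of these genes, Apoa2, Fcer1g, Adamts4, H2-T23 by this probe, Bbs12, Nudt6 and Gm5148 were undetected on all SJL arrays and H2-T10 on all B6 arrays, so their values are differences of normalized signal and give the direction only. Of the 8 runs of 5, 7 mixed directions and the chromosome 3 run did not.

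**Figure D4:**
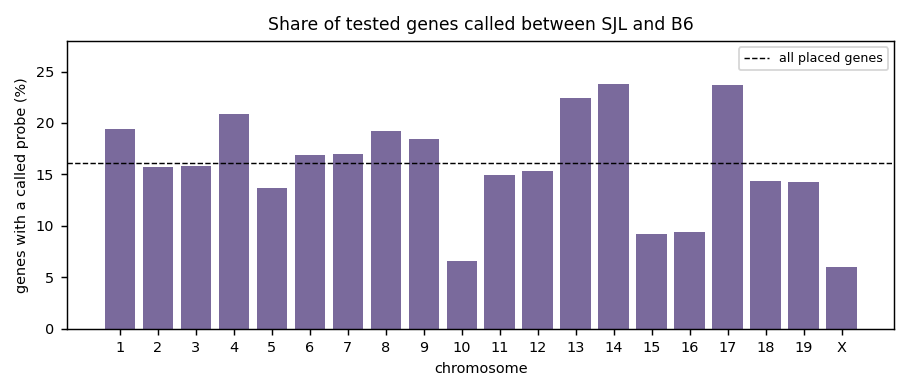
Share of tested genes (%) with at least 1 probe called between SJL and B6, by chromosome, with a dashed line at 16.1% for all placed genes. Bars run from 6.00% on X to 23.8% on chromosome 14.

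Gene pairs that start back to back share the DNA between their starts, which bears on whether neighbours move together. In the RefSeq annotation of GRCm38.p6, 257 such pairs with starts within 300 bases had both genes tested. At least 1 gene was called in 79 pairs and both in 20, taking each gene by its most significant probe. Over all placed genes 16.1% had a called probe, and whether the pairs depart from that share was not tested. In 10 of the 20 the genes moved the same way and in 10 opposite ways. These directions can depend on the probe: Hgs, paired with Arl16, counts as lower by -0.62, while another called Hgs probe had 0.31. The shared stretches of 2 opposite pairs and 1 concordant pair are shown from RefSeq promoter sequence on the plus strand, to let them be seen beside the values. Capitals mark the bases from 1 start to the other, and 25 flanking bases on each side are in lower case.
Mtrr/Fastkd3, chr13:68582144-68582235: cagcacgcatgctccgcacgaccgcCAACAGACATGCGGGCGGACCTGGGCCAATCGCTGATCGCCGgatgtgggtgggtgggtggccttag
Nubp2/Spsb3, chr17:24885916-24886007: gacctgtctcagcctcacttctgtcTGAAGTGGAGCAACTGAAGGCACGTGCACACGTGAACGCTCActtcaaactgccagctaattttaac
Nup98/Pgap2, chr7:102210141-102210198: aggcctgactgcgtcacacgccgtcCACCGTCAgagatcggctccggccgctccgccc

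The starts of Mtrr, which reactivates methionine synthase, and Fastkd3, a mitochondrial RNA-binding protein gene, lie 41 bases apart. Mtrr had 6.46, 6.50, 6.62 and 6.41 in SJL mice and 5.56, 5.61, 5.24 and 5.42 in B6 mice (adjusted p = 3.69e-06, limma), detected on 2 of 4 B6 arrays and at least 1.77-fold higher in SJL. Fastkd3 had 4.62, 4.51, 4.74 and 4.61 in SJL mice, detected on none, and 7.39, 7.54, 7.36 and 7.27 in B6 mice, at least 3.03-fold lower in SJL (adjusted p = 3.11e-11, limma). Each gene has 1 tested probe, and both pairs of groups were separate, in opposite directions. In Tg mice, Mtrr had means of 6.47 in SJL-richest and 6.59 in B6-rich mice, and Fastkd3 4.38 and 5.23. Neither passed there, and Mtrr did not keep its sign.

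Nubp2, an iron-sulfur cluster assembly factor, and Spsb3, a ubiquitin ligase adaptor, also start 41 bases apart. The 3 Nubp2 probes had log2 changes of 1.52, 0.92 and 0.19, the last of which did not pass, and the 2 Spsb3 probes -0.72 and -0.41. Every tested probe of each gene thus kept its gene's sign. The starts of Nup98, a nuclear pore protein gene, and Pgap2, which remodels the lipid of anchored proteins, lie 7 bases apart. Their leading probes were both lower in SJL, Nup98 by -0.46 (detected on 1 SJL array) and Pgap2 by -0.84. Another Pgap2 probe passed at -0.65 (adjusted p = 0.00263, limma). For each gene 1 other probe, at -0.19 and -0.36, did not pass.

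The same strain pair was met in Tg mice, which are other animals on other arrays, with a gap in SJL share of 46.5 percentage points between SJL-richest and B6-rich mice. There limma called 165 of 13589 probes (1.21%), 65 higher and 100 lower in SJL-richest mice. Of the 1841 probes called between the inbred strains, 102 were among them (5.54%), and 101 of these had the same sign. The same sign, called or not, was seen for 1577 of the 1841 (85.7%), against 59.2% of all tested probes and 55.1% of those not called. Among inbred differences of at least 2-fold it was 361 of 370 (97.6%). Across the 1841 probes, which are not independent, Pearson's r between the log2 changes was 0.85 and the slope 0.42. Over all tested probes r was 0.59 and the slope 0.36, and over those not called 0.00071 and 0.014.

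Zfp365 passed again. In SJL-richest mice it ran from 5.07 to 10.72 with a median of 5.35, detected on 1 of 6 arrays, and in B6-rich mice from 10.85 to 11.73 with a median of 11.23 (log2 change -5.05 ± 0.81, SE, adjusted p = 0.0222, limma). A single SJL-richest mouse stood near the B6-rich mice, and the groups did not overlap. H2-D1 ran from 6.16 to 7.30 in SJL-richest mice and from 4.44 to 6.46 in B6-rich mice, 2 of which had it detected (log2 change 1.72, adjusted p = 0.0379, limma). Slc17a7 ran from 12.27 to 12.86 in SJL-richest mice and from 11.44 to 12.35 in B6-rich mice (log2 change 0.83, adjusted p = 0.0304, limma). The ranges of both groups overlapped at their edges for these genes.

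Other genes passed in both sets of mice. Grwd1 probe ILMN_2815889 was higher in SJL-richest mice by 0.98 and H2-T10 by 1.65, and Gm5801 was lower by -2.89. Rtn4, which encodes the neurite growth inhibitor Nogo, was chosen after its values were seen: it had 9.21, 9.27, 9.31 and 9.41 in inbred SJL mice and 7.71, 7.86, 7.82 and 7.73 in inbred B6 mice on probe ILMN_1239786, and was higher by 0.91 in SJL-richest than in B6-rich mice (adjusted p = 0.0338, limma). Its 2 other probes had 0.25 and 0.20 in inbred mice and did not pass. Srxn1, sulfiredoxin, likewise chosen afterwards, was lower on 2 probes in inbred mice, by -2.34 and -2.11, and in SJL-richest mice by -2.69 and -2.68, with another probe at -0.10 in inbred mice that did not pass.

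Many large inbred differences kept their sign in Tg mice without passing. Cops8 ran from 4.47 to 9.28 in SJL-richest mice, with a median of 4.66 and detection on 2 of 6 arrays, and from 9.18 to 10.45 in B6-rich mice (log2 change -3.65, adjusted p = 0.0684, limma). Fcer1g ran from 4.36 to 8.49 in SJL-richest mice, 2 of 6 detected, and from 4.48 to 9.55 in B6-rich mice, 4 of 6 detected. Spink8 was undetected on 1 of 6 SJL-richest arrays and ran from 4.40 to 9.21 there, with a median of 8.84, against 8.87 to 9.41 in B6-rich mice. Its SJL-richest median thus lay just below the B6-rich range, so the large inbred deficit was not seen in most of these mice. For Cops8 and Fcer1g, mice of the SJL-richest group thus ranged from near the inbred SJL level up to 9.28 and 8.49. Both upper values lay below every inbred B6 mouse. The 1 probe called in both comparisons with opposite signs was ILMN_3034877 of the kinesin gene Kif1b, at -0.59 between inbred strains and 0.51 between Tg groups.

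In Tg mice the oligodendrocyte list had 0 called of 21 and a median of -0.19, and the class I list 3 called and a median of 0.08. The choroid plexus list had 0 called and a median of 1.76; between the inbred strains its median of -0.40 changed sign with single arrays, as given above. Both Tg groups carry the transgene, which no inbred mouse here does.

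**Figure D5:**
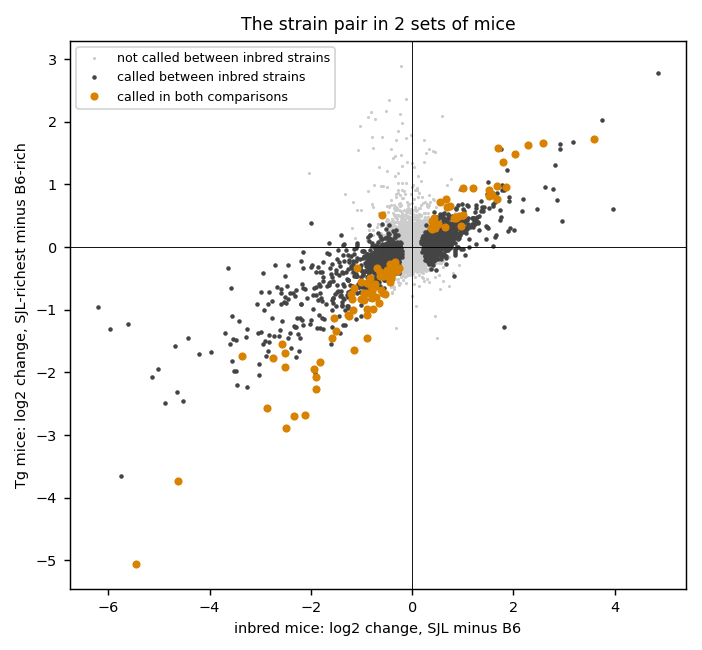
Log2 change of each of 13589 probes between SJL-richest and B6-rich Tg mice (vertical) against that between inbred SJL and B6 mice (horizontal), with the probes called between inbred strains in dark grey and those called in both comparisons in orange. Of the 1841 called between the inbred strains, 1577 lie in the lower left and upper right of the plot, where both changes share a sign. Zfp365 lies at -5.45 and -5.05, with detection on 1 of the 6 SJL-richest arrays.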

How the data were processed

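Hippocampal total RNA was measured on 1-colour arrays, and the series' design text gives each array a mouse of its own. For every probe the deposited non-normalized table holds a signal intensity, with negative values that show an earlier background subtraction, and a detection score that per the file headers is a p-value but is near 1 for bright probes, so 1 minus the score was used. A second deposited table of the authors' signal intensity was used only to check array names, for the accession-named count and for 1 Tg alternative. The software and scaling behind them are not given in the sources used here. Running numbers 29 to 32 and 33 to 40 were treated as sets because their detection rates differ; the labels call neither a batch.

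Signals of the 40 arrays were normalized with neqc of limma 3.58.1 (R 4.3.3, statmod 1.5.0): normexp fitted with the detection p-values, then an offset of 16, quantiles made equal across arrays, and log2. Testing was limited to the 13589 probes detected (p at most 0.01) on 4 arrays or more, with lmFit and eBayes on 12 inbred arrays in 3 groups, with Benjamini-Hochberg adjustment at 0.05, and likewise on 12 Tg arrays. The script was tested on simulated data. Symbols came from the platform annotation (23978 probes with 1 symbol, 1719 with none), and 23962 were updated by Entrez number. Gene order, promoters and starts came from RefSeq for GRCm38.p6.

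Named genes were the 12 highest and 12 lowest log2 changes measured on all 8 arrays without overlap, the 8 largest bounds each way, up to 4 called members of each of 27 gene lists (788 genes, 548 tested) and all Klc1 probes; other genes serve as context for a list, a run, a pair or a set of probes. Members and lists were chosen with earlier results of these data known. A list's summed level is the log2 of the sum of its members' linear signals. Alternatives covered normalization, filters, variances, arrays used, thresholds and the methods' t-test.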

Additional observations from a re-analysis of the deposited data

Results flagged for a closer look

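Among 214 sets of 4 mice (107 named probes in each of the strains), 10 held 1 mouse whose gap to its nearest neighbour was large for the range of the set (by Dixon's test). Chance gives such a gap in about 1 in 20 sets, so the count is near what chance gives. In SJL mice, Cbfa2t3 stood at 6.49 in 1 mouse with its nearest neighbour at 6.25, Arl16 at 7.41 with 7.11, and Insig2 at 7.84 with 7.61. Trf stood at 11.02 with 11.66 and Prox1 at 8.64 with 8.92 in SJL mice, both low in 1 mouse. Kcnn1 stood at 7.28 in 1 SJL mouse with 7.49 next to it, and at 7.18 in 1 B6 mouse with 6.91. Hspb8 stood at 7.41 in 1 B6 mouse with 7.82. Hspa8 stood at 14.96 in 1 SJL mouse with 14.86, and Psmb5 at 8.69 in 1 SJL mouse with 8.53. SJL replicate 1 was the deviating mouse for Cbfa2t3, Arl16, Insig2, Trf, Kcnn1 and Psmb5.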

How the results depend on the processing

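The count of 1841 probes (952 lower in SJL) stayed within 1.5 times under 8 settings: 1791 with quantile normalization without background correction, 1846 with inbred arrays normalized alone, 1776 with no filter, 1385 on probes detected on all 40 arrays (647 lower, 46.7%, against 51.7% in the main analysis), 1970 with trend and robust variances, 1778 with the 8 SJL and B6 arrays alone, 1579 with running numbers as a block, and 1565 with the methods' t-test and the same adjustment. It ranged from 1453 to 1747 when each SJL or B6 array was left out. It fell to 1008 (588 lower) with running numbers 33 to 40 alone, which leave 2 B6 arrays, to 561 (370 lower) at an adjusted p of at most 0.001 and 1.5-fold, where the methods' t-test gave 320, and to 0 with accession names. Between the Tg groups the count was 165, and 267 with all 28 Tg arrays in 1 fit. Among the 107 named probes, no called one changed direction under quantile normalization, inbred arrays alone, trend and robust variances, the 8 arrays, running numbers 33 to 40, the block or leaving out 1 array; the other settings were followed by counts only. With running numbers 33 to 40 alone, 21 named probes no longer passed, among them Sfrp1, C2, C1qc, Pllp, Ugt8a, Trf, Drd1, Htr3a, Sorl1 and Ece1; with the block, 9 did not, C2, Ugt8a, Fa2h, Fgfr3, Cd109, Prox1, Tac1, Egr4 and Gstp2. The cause was not tested, and the first uses 2 fewer B6 arrays. Among the lists, running numbers 33 to 40 alone left 3 called complement and Fc receptor genes, 2 interneuron, 3 potassium channel, 2 amyloid, 2 glutathione transferase and 4 respiratory chain genes. No paired analysis was possible because the replicate numbers follow accession order and the labels pair no mice. Probes undetected in a strain are limited to bounds, and log2 changes printed for them are differences of normalized signal.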
